A study of Mus musculus with 6 samples.

Results

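The genes described here are the 116 expressed protein-coding genes on a stretch of mouse chromosome 6 around Adipor2, a receptor gene for adiponectin. They were chosen by position and level: genes that start between 113600000 and 131400000 on chromosome 6 of GRCm38 (GENCODE M21), with a mean of at least 0.5 TPM over all 6 libraries. TPM is the abundance of a gene's transcripts per length, scaled to the same total in every library. Of 248 protein-coding genes in this stretch, 123 were below the limit and 9 were set aside by the rule (Adipor2, Nanog, Dppa3, Gapdh, Tpi1, Chd4, Tead4, Foxm1 and Ndufa9), which left 116 of the 55401 genes in the files and of the 14156 genes that passed the same limit. The limit is a measured value, so the mean TPM is given as a description. The stretch itself was chosen with earlier results of these data known.

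The libraries were bulk poly(A) RNA-seq of 46C cells, a mouse embryonic stem cell (mESC) line grown in medium with serum, leukaemia inhibitory factor and 2 kinase inhibitors. Control cells stably expressed the biotin tag alone, Rbbp4 overexpression (Rbbp4 OE) cells biotin-tagged Rbbp4, and Rbbp7 overexpression (Rbbp7 OE) cells biotin-tagged Rbbp7, with 2 libraries in each of the 3 groups. The methods of the study describe tag lines of this kind as 46C cells that carry the BirA biotin ligase, with both constructs brought in by lentivirus under blasticidin and puromycin selection, but do not say which cells gave the RNA-seq libraries. No source used here describes more than 1 stable line per construct, so an effect of a construct and a difference between lines cannot be told apart. Nothing says that the 2 libraries of a group came from separate cultures, so the p-values measure the spread between these libraries, which may be technical.

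The histone-binding proteins RBBP4 and RBBP7 resemble each other closely and serve as shared subunits of several chromatin complexes, among them NuRD, PRC2 and, for RBBP4, the CAF-1 histone chaperone. The stretch of chromosome 6 around Adipor2 holds no single pathway. It carries genes with roles in apoptosis, ribosome assembly, chromosome condensation, vesicle traffic and signalling, beside a cluster known for genes of pluripotent cells (Nanog, Dppa3, Gdf3 and Slc2a3). The members are described in order along the chromosome and by role.

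The number of genes above 0 TPM was 19011 to 19691 per library, and depth is unknown because TPM does not keep it. The 6 markers of mESCs (Pou5f1, Sox2, Esrrb, Zfp42, Tfcp2l1 and Klf4) were each at 1 TPM or more in every library, with summed levels from 2871 to 3125 TPM. Summed fibroblast markers were 0.22 to 0.88 TPM in control and Rbbp4 OE and 1.71 to 8.71 TPM in Rbbp7 OE, and summed primitive endoderm markers were 0.41 to 2.81 TPM over all libraries. Summed trophoblast markers were 10.9 to 15.2 TPM and summed neural markers 1.00 to 1.67 TPM. Single markers moved in both directions within the sums. In both lines Cdx2 and Gata3 were below both controls and Eomes above. In Rbbp4 OE, Pou5f1 was above both controls, Esrrb, Tfcp2l1 and Klf4 were below, and Sox2 and Zfp42 overlapped them. Rbbp4 stood at 146 and 147 TPM in the controls, 269.97 and 271 TPM with Rbbp4 OE, and 144 and 143 TPM with Rbbp7 OE. Rbbp7 stood at 239 and 237 TPM in the controls, 208 and 217 TPM with Rbbp4 OE, and 725 and 748 TPM with Rbbp7 OE. Each overexpressed gene was thus highest in its own line. TPM do not separate the tagged copy from the cells' own gene. Adipor2, which gives the stretch its name and is no member, stood at 95.1 and 103 TPM in the controls, 24.2 and 24.9 TPM with Rbbp4 OE, and 30.6 and 31.6 TPM with Rbbp7 OE.

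In Rbbp4 OE, the members were mostly lower than in control. Their summed level was 14887 and 14721 TPM in the controls, 11846 and 11735 TPM with Rbbp4 OE, and 12788 and 12916 TPM with Rbbp7 OE, and the 3 groups did not overlap. The mean sum was 14804 TPM ± 117 (SD, n = 2) for control, 11790.2 ± 78.5 (SD, n = 2) for Rbbp4 OE and 12852 ± 90.4 (SD, n = 2) for Rbbp7 OE. The sum is weighted to the most abundant members: Rpl32 alone had means of 4524 TPM in control, 3757 TPM with Rbbp4 OE and 3852 TPM with Rbbp7 OE. The median log2 fold change of the members in Rbbp4 OE was -0.31, against -0.077 over all genes tested and -0.15 over the 440 expressed protein-coding genes of chromosome 6 outside the stretch. Fold changes are differences of log2(TPM + 1), a scale that understates the change of low genes. In bulk RNA, a fall in every cell and the loss of a share of cells that express a gene cannot be told apart.

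Gene by gene, 90 of the 116 members had a log2 fold change below 0 in Rbbp4 OE, where 59.0% of all genes tested did. Of the members, 40 were lower at a limma adjusted p under 0.05, which is 34.5% of them, against 8.07% of all genes tested. At the same threshold 2 members, Tuba3a and Tnfrsf1a, were higher, against 3.29% of all genes tested. In 75 members both Rbbp4 OE libraries lay below both controls, against 37.1% of all genes tested, and in 11 members both lay above, against 20.8%. The other 30 members overlapped. At the stricter rule of an adjusted p under 0.01 and a fold over 2, 1 member was called, Bid, which was lower, against 0.516% of all genes called in either direction and 0.311% called lower. Most decreases were moderate: only 4 members had a fold over 2, with Bid, Kdm5a and Ankrd26 lower and Mug1 higher. Mug1 passed the level limit only through Rbbp4 OE replicate 2, so a higher value in Rbbp4 OE was built in by the limit. Folds over 2 were about as rare over all genes tested. There the 1st and 2nd percentiles of the log2 fold change were -1.10 and -0.89, and the 98th was 1.02.

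The count of 40 depended on how the spread was estimated as well as on single libraries. Leaving out an Rbbp7 OE library does not change these fold changes. In a fit of control and Rbbp4 OE alone, with the same fold changes, the count was 5, against 0.713% of all genes. It became 30 without control replicate 1, 11 without control replicate 2, 2 without Rbbp4 OE replicate 1, 0 without Rbbp4 OE replicate 2 and 4 without either Rbbp7 OE replicate. The share of all genes lower moved with it, to between 0.0848% and 8.58%. The median fold change of the members stayed between -0.34 and -0.30 in the 6 fits with a library left out. In the limma fit of all 6 libraries, 62 members had an unadjusted p under 0.05, against 4187 of the 14156 genes tested. With median-of-ratios scaling between libraries, 19 members were lower and 3 higher, while over all genes 49.9% of the calls at this threshold were decreases, against 71.0% with the TPM as deposited.

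**Figure D1:**
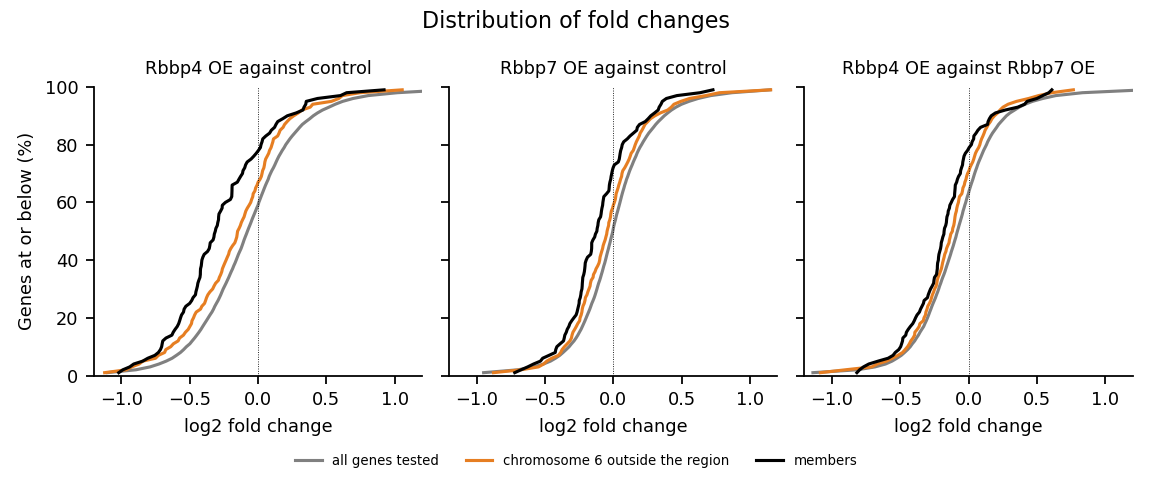
Cumulative share of genes (vertical axis, percent) at or below a log2 fold change (horizontal axis) for the 116 members, the 440 chromosome 6 genes outside the stretch and all 14156 genes tested, in 3 comparisons. The curve of the members lies to the left of the other curves around its middle in each panel, with medians of -0.31, -0.12 and -0.18.

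Rbbp7 OE showed a smaller shift in the same stretch. The median log2 fold change of the members was -0.12, against -0.0037 over all genes tested and -0.046 over chromosome 6 outside the stretch. Of the members, 83 were below 0, against 50.7% of all genes tested, and 32 were above 0. Both Rbbp7 OE libraries lay below both controls in 55 members, against 23.4% of all genes tested, and above both in 14, against 21.2%. At a limma adjusted p under 0.05, 1 member was lower, Slc2a3, against 0.29% of all genes, and 0 were higher, against 0.198%. No member was called at the stricter rule, at which 0.0353% of all genes were called. In the limma fit, 38 members had an unadjusted p under 0.05, against 2180 of the 14156 genes tested. Leaving out any 1 of the 6 libraries took the count of 1 to 0. Rbbp4 OE and Rbbp7 OE were set against 1 shared pair of controls, and the 2 sets of fold changes are not independent.

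Set against each other directly, the members were lower in Rbbp4 OE than in Rbbp7 OE by a median of 0.18 on the log2 scale (median -0.18, against -0.082 over all genes tested). Of the members, 91 had a difference below 0, against 63.3% of all genes, and both Rbbp4 OE libraries lay below both Rbbp7 OE libraries in 66, against 38.6%, and above in 9, against 16.1%. In this comparison 1 member, Tuba3a, was higher at a limma adjusted p under 0.05, against 0.177% of all genes, and 0 were lower, against 0.127%. No member was called at the stricter rule (0.0494% of all genes). By limma, 36 members had an unadjusted p under 0.05, against 2685 of the 14156 genes tested. The call of Tuba3a passed in 3 of 16 alternatives, with adjusted p from 0.00153 to 0.387 by limma, and was lost with median-of-ratios scaling and with any library left out. With that scaling the median of the members was -0.091, against 0.0013 over all genes, and 76 members were below 0. For nearly all members, then, the difference between the lines did not pass the test gene by gene.

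Decreases that passed an adjusted p under 0.05 were most frequent among the highly expressed members. Of the 21 members with a mean of at least 100 TPM, 17 were lower in Rbbp4 OE at a limma adjusted p under 0.05, which is 81.0%, while 16.2% of the 1356 protein-coding genes at this level were. Their median was -0.35 on the log2 scale for Rbbp4 OE and -0.21 in Rbbp7 OE, against -0.013 and -0.021 over those 1356 genes. In Rbbp7 OE, 18 of the 21 had both libraries below both controls, against 34.0% of those genes. Among the 50 members under 10 TPM, 4 were lower in Rbbp4 OE at this threshold, against 3.17% of the 5552 protein-coding genes under 10 TPM, and their median was -0.19 against -0.084. The 66 members of at least 10 TPM, which include those 21, also had a median of -0.35 in Rbbp4 OE. The median absolute log2 difference between the 2 libraries of a group was 0.142 over the members in control, 0.115 in Rbbp4 OE and 0.092 in Rbbp7 OE, against 0.178, 0.121 and 0.123 over all genes tested.

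Bid had the largest called decrease and Tnfrsf1a the largest increase among the members that passed an adjusted p under 0.05. Bid (ENSMUSG00000004446.12, GRCm38 chr6:120891930-120916853, minus strand) encodes a BH3-only protein that links death receptors to mitochondrial apoptosis. It stood at 59.3 and 64.3 TPM in the controls, 28.5 and 27.6 TPM with Rbbp4 OE, and 53.1 and 45.2 TPM with Rbbp7 OE. All 3 groups were separate, with Rbbp4 OE lowest. The log2 difference from control was -1.11 (limma adjusted p = 0.00574, SE 0.099) in Rbbp4 OE and -0.33 (adjusted p = 0.215) in Rbbp7 OE, and the direct difference of Rbbp4 OE from Rbbp7 OE was -0.78 (adjusted p = 0.0636). Exons of Bid overlap exons of its neighbour Bcl2l13 in the annotation, and the strand setting of the counting is not given in the sources used here, so reads in the overlap cannot be told apart. The call of Bid at the stricter rule was lost on leaving out any 1 of the 6 libraries.

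Tnfrsf1a (ENSMUSG00000030341.17, GRCm38 chr6:125349362-125362484, plus strand) encodes tumour necrosis factor receptor 1. It stood at 10.1 and 10.3 TPM in the controls, 20.1 and 21.9 TPM with Rbbp4 OE, and 15.2 and 14.4 TPM with Rbbp7 OE. Rbbp4 OE was highest, Rbbp7 OE between, and control lowest. It differed from control by 0.97 (limma adjusted p = 0.00797, SE 0.099) in Rbbp4 OE and 0.49 (adjusted p = 0.117) in Rbbp7 OE. Tuba3a (ENSMUSG00000067702.5, GRCm38 chr6:125278274-125286042, minus strand), an alpha-tubulin gene proximal of it beyond Ltbr, stood at 71 and 68.6 TPM in the controls, 108 and 111 TPM with Rbbp4 OE, and 71.9 and 77.3 TPM with Rbbp7 OE. Its increase was seen in Rbbp4 OE, at 0.64 (limma adjusted p = 0.00784, SE 0.065), and the value in Rbbp7 OE was 0.094 (adjusted p = 0.54). The direct difference between the lines was 0.55 (limma adjusted p = 0.0466, SE 0.065), a call that most alternatives lost. The annotation holds 1 near-identical copy of Tuba3a, and how its reads were split is uncertain. Cd9 (ENSMUSG00000030342.8, GRCm38 chr6:125460266-125494791, minus strand), a tetraspanin gene distal of Tnfrsf1a beyond Plekhg6, went the other way. It stood at 425 and 437 TPM in the controls, 316 and 303 TPM with Rbbp4 OE, and 376 and 349.7 TPM with Rbbp7 OE, with a change of -0.48 (limma adjusted p = 0.00936, SE 0.054) in Rbbp4 OE and -0.25 (adjusted p = 0.137) in Rbbp7 OE.

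Promoter sequences of these 4 genes are shown because they include the single called decrease and, close together on the chromosome, both increases and a decrease. They are from RefSeq on GRCm38.p6, 250 bases before to 50 after the RefSeq start, and are written 5′ to 3′ on the strand of the gene. For Bid, Cd9 and Tuba3a, that start is 28, 30 and 40 bases from the gene start given above. For Tnfrsf1a it lies 361 bases inside the gene, so the window holds no bases before the gene start given above. Bid is at chr6:120916775-120917074 on the minus strand, Cd9 at chr6:125494711-125495010 on the minus strand, Tnfrsf1a at chr6:125349473-125349772 on the plus strand and Tuba3a at chr6:125286032-125286331 on the minus strand. Capitals mark GGGCGG (the GC box), CCAAT (the CAAT box) or TATAAA (the TATA box) on either strand.
Bid: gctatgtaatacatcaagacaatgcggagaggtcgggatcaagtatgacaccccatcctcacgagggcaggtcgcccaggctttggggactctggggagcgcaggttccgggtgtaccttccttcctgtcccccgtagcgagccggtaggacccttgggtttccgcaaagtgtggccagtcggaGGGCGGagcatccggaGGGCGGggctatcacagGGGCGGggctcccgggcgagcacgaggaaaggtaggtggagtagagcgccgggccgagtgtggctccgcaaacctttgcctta
Cd9: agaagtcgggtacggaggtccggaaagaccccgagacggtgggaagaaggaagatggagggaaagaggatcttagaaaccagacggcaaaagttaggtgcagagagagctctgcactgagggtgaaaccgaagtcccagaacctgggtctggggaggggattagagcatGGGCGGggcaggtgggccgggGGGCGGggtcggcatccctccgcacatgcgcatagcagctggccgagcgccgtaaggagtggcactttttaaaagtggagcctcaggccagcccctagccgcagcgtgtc
Tnfrsf1a: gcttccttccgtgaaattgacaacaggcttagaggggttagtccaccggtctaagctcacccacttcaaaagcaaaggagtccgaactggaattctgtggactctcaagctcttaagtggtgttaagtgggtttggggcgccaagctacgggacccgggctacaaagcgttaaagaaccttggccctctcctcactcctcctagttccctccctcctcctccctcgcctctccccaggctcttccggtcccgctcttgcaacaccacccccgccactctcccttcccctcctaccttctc
Tuba3a: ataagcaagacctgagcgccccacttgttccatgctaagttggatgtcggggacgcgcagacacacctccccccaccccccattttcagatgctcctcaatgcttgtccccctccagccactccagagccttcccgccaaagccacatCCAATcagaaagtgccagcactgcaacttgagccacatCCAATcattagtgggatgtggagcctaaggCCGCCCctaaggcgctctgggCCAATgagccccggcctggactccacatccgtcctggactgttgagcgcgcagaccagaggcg
The Bid window holds the GC box 3 times, the Cd9 window 2 times, the Tuba3a window 1 time with the CAAT box 3 times, and the Tnfrsf1a window none of the 3 motifs. Of 32544 promoter windows of the same length in the table, 35.9% hold the GC box, 37.4% the CAAT box and 13.6% the TATA box. The table matched 88 of the 116 members, with 125 windows, and of these 56.0% hold the GC box, 29.6% the CAAT box and 8.0% the TATA box. The CpG dinucleotide occurs 22 times in the Bid window, 18 times in that of Cd9, 11 times in that of Tnfrsf1a and 12 times in that of Tuba3a, where the median over all windows is 7 and over the members' windows 18.

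**Figure D2:**
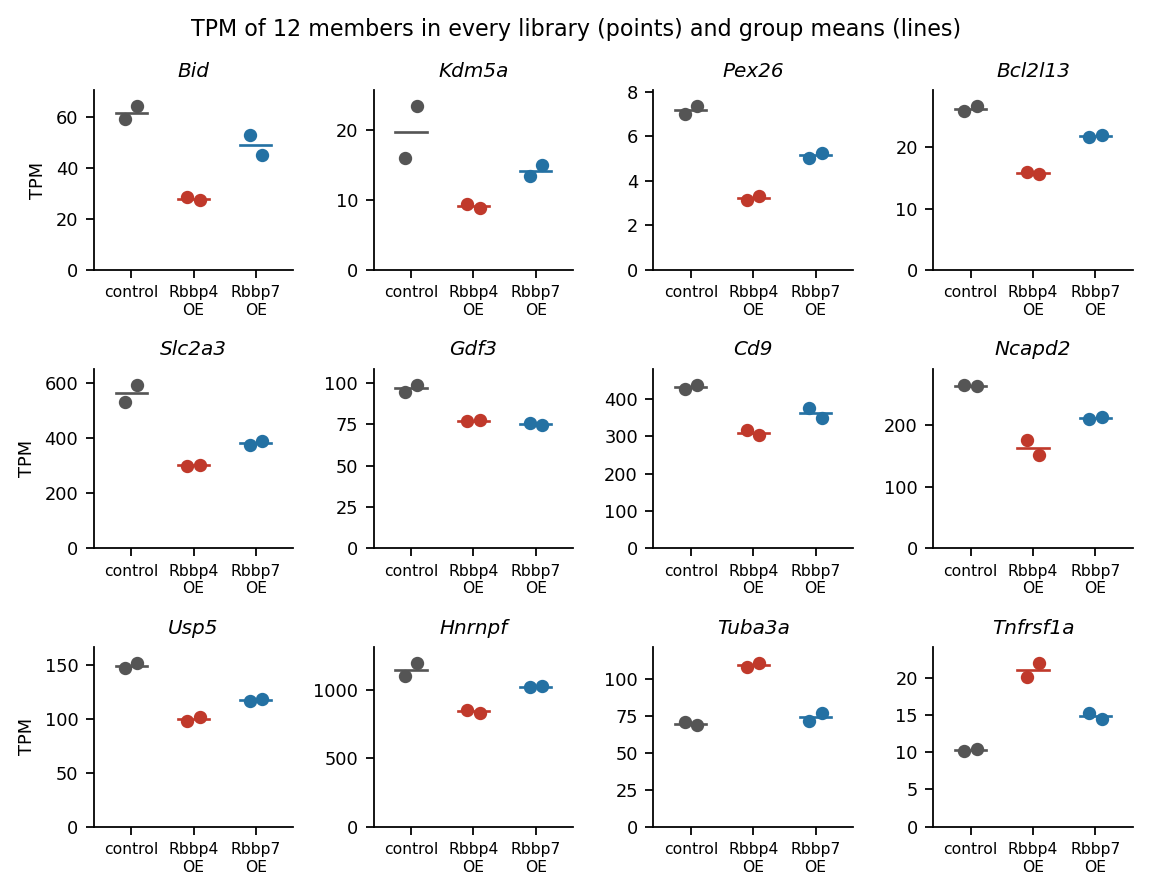
TPM (vertical axis, from 0) of 12 members in each library, with points for the 2 libraries of each group and a line for their mean. In the 10 members that fell, the Rbbp4 OE points lie below both controls, for example at 28.5 and 27.6 TPM for Bid, while Tuba3a and Tnfrsf1a are highest in Rbbp4 OE.

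Along the chromosome, the decrease in Rbbp4 OE ran through nearly the whole stretch. In bins of 2 Mb, the median log2 fold change of the members was -0.30, -0.27, -0.38, -0.45, -0.41, -0.19, -0.52, -0.26 and 0.075 from the proximal to the distal end, with 10, 15, 14, 14, 12, 37, 4, 8 and 2 members. Thus 8 of 9 bins were below the median of all genes in Rbbp4 OE, and the exception is the last bin, which holds Magohb and Ybx3. In Rbbp7 OE the medians were -0.11, -0.073, -0.25, -0.097, -0.24, -0.076, -0.25, -0.15 and -0.014, all 9 below the median of all genes. With bins of 1 Mb, 15 of 16 were below it in Rbbp4 OE and 16 of 16 in Rbbp7 OE. From Rad52 to Slc6a12, the first 2 Mb bin that starts distal of Adipor2, all 14 members were below 0 in Rbbp4 OE. Of these, 7 passed an adjusted p under 0.05 as lower. The 1 Mb bin that holds the start of Adipor2, from Dcp1b to Erc1, had a median of -0.19 in Rbbp4 OE. There 3 of 5 members were below 0 and 1 passed as lower. Over all genes tested, 59.0% were below 0 and 8.07% passed as lower, while 34.5% of all members passed as lower. The crowded bin from Pex5 to Vwf was mixed. Of its 37 members, 24 were below 0, near the share of all genes, and 11 passed as lower, near the share of all members. It also holds both members that rose.

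**Figure D3:**
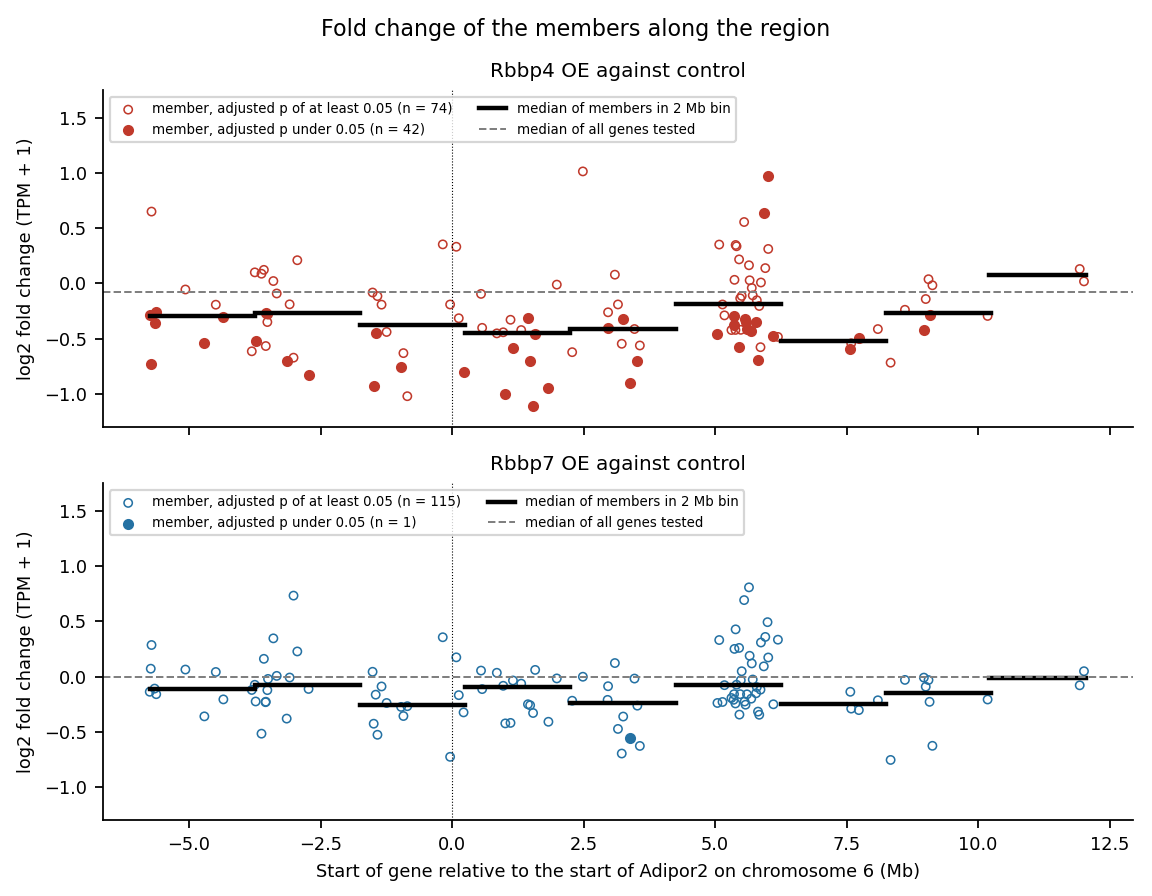
Log2 fold change against control (vertical axis) of each member by the distance of its start from the start of Adipor2 in Mb (horizontal axis), in Rbbp4 OE (top) and Rbbp7 OE (bottom). Filled points passed a limma adjusted p under 0.05, black lines are medians in 2 Mb bins and the dashed line is the median of all genes tested. In Rbbp4 OE, 42 points are filled and 8 of 9 bin medians lie below the dashed line.

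The limits of the stretch were not limits in the values. The 30 expressed protein-coding genes between 100 Mb on chromosome 6 and the proximal end of the stretch had a median log2 fold change of -0.40 in Rbbp4 OE, lower than that of the members, and of -0.15 in Rbbp7 OE. The 63 such genes distal to it had medians of -0.16 and -0.073, and the 347 genes in the first 100 Mb had -0.11 and -0.033. In bins of 5 Mb along the whole chromosome, the Rbbp4 OE medians from 20 Mb before to 25 Mb after the start of Adipor2 were -0.42 to -0.20. The bins from 115 to 105 Mb before it were also low, at -0.29 over 17 genes and -0.36 over 6, as were those starting 85 and 75 Mb before it, at -0.20 and -0.23 over 26 genes each. Over the 18 other autosomes, the medians of whole chromosomes lay between -0.165 and 0.0021 in Rbbp4 OE and between -0.089 and 0.023 in Rbbp7 OE, but a whole chromosome holds more genes than the stretch and averages over more of them.

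**Figure D4:**
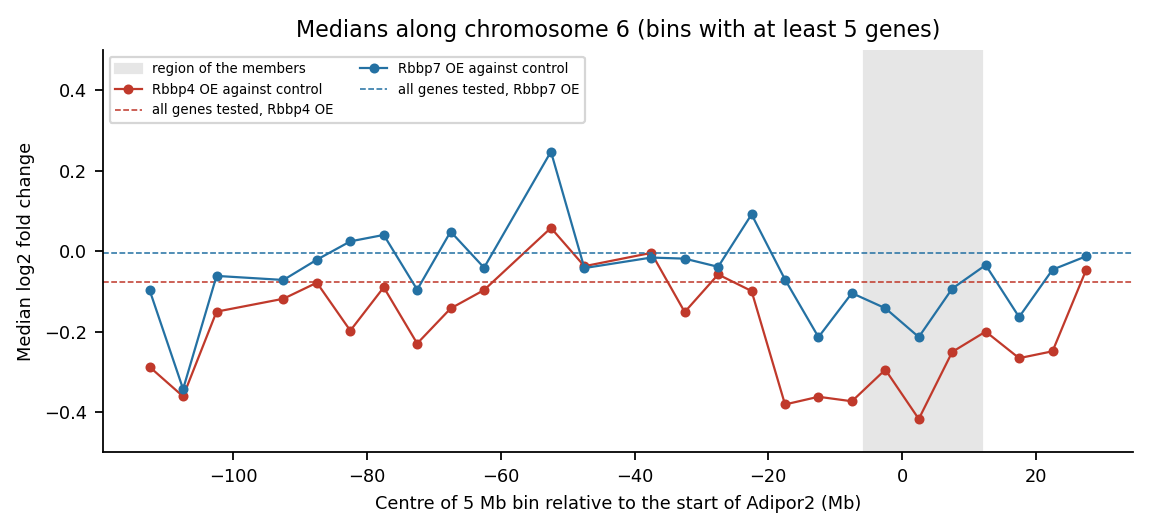
Median log2 fold change against control (vertical axis) of expressed protein-coding genes in 5 Mb bins along chromosome 6, by distance of the bin centre from the start of Adipor2 (horizontal axis, Mb), for bins with at least 5 genes. The grey band is the stretch of the members and dashed lines are the medians of all genes tested. The Rbbp4 OE line stays between -0.42 and -0.20 in the bins from 20 Mb before to 25 Mb after Adipor2, beyond both sides of the band. Far proximal of it, 3 bins lie in the same range and another lies just above it, at -0.197.

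By role, the counts of members lower in Rbbp4 OE at an adjusted p under 0.05 stand against 34.5% of all members and 8.07% of all genes tested, and those of members below 0 against 77.6% and 59.0%. The lists share some genes and were not compared with each other by a test. In the apoptosis and mitochondria list, which also holds the peroxisomal gene Pex26, 5 of 6 members passed as lower in Rbbp4 OE, none as higher, and the median was -0.60. The list leaves out the receptor gene Tnfrsf1a, which passed as higher and is in the signalling and receptors list. In Rbbp7 OE all 6 were below 0, where 71.6% of all members and 50.7% of all genes were, with a median of -0.32, and 0 passed. Beside Bid, Bcl2l13, a BCL2-family protein of the outer mitochondrial membrane, stood at 25.9 and 26.7 TPM in the controls, 15.97 and 15.6 TPM with Rbbp4 OE, and 21.7 and 21.98 TPM with Rbbp7 OE. It differed from control by -0.70 (limma adjusted p = 0.00967, SE 0.082) in Rbbp4 OE and -0.26 in Rbbp7 OE. Pex26, a peroxisomal membrane protein that anchors the peroxin export ATPases, stood at 6.99 and 7.34 TPM in the controls, 3.16 and 3.3 TPM with Rbbp4 OE, and 5.04 and 5.27 TPM with Rbbp7 OE. The groups were separate, and the change was -0.95 (limma adjusted p = 0.0143, SE 0.13) in Rbbp4 OE. Tigar, a phosphatase that restrains glycolysis, was at -0.49 (limma adjusted p = 0.0199, SE 0.08), and Phb2, a prohibitin of the inner mitochondrial membrane, at -0.30 (limma adjusted p = 0.0202, SE 0.048). Mrpl51, a protein of the mitochondrial ribosome, did not pass in either line, with -0.20 (adjusted p = 0.106) in Rbbp4 OE and -0.34 (adjusted p = 0.112) in Rbbp7 OE by limma.

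A list of neighbours of Nanog and Dppa3 had all 7 members below 0 in both lines, with medians of -0.41 and -0.26, though in Rbbp7 OE the libraries of Phc1 and Foxj2 overlapped the controls. Rimklb, which lies between Phc1 and Apobec1 and is not in the list, was at 0.08 (adjusted p = 0.719) in Rbbp4 OE and 0.12 (adjusted p = 0.699) in Rbbp7 OE by limma. In Rbbp4 OE 4 passed an adjusted p under 0.05 as lower (Slc2a3, Gdf3, Necap1 and M6pr), against 34.5% of all members and 8.07% of all genes, and in Rbbp7 OE 1 did. Slc2a3 (ENSMUSG00000003153.10, GRCm38 chr6:122727809-122801640, minus strand), the glucose transporter GLUT3, stood at 533 and 594 TPM in the controls, 299.9 and 303 TPM with Rbbp4 OE, and 376 and 390.04 TPM with Rbbp7 OE. It passed in both lines, at -0.90 (limma adjusted p = 0.00348, SE 0.062) in Rbbp4 OE and -0.55 (limma adjusted p = 0.0334, SE 0.062) in Rbbp7 OE. Gdf3, a TGF-beta family ligand of pluripotent cells, stood at 94.9 and 98.97 TPM in the controls, 77.1 and 77.6 TPM with Rbbp4 OE, and 75.6 and 74.96 TPM with Rbbp7 OE. Both lines lay below both controls and close to each other, with -0.32 (limma adjusted p = 0.0249, SE 0.058) in Rbbp4 OE and -0.36 (adjusted p = 0.0785) in Rbbp7 OE. Necap1, an adaptor of clathrin-mediated endocytosis, was at -0.70 (limma adjusted p = 0.0148, SE 0.098) in Rbbp4 OE and -0.26 in Rbbp7 OE. M6pr, the cation-dependent mannose-6-phosphate receptor, was at -0.40 (limma adjusted p = 0.0216, SE 0.068). Phc1, a Polycomb repressive complex 1 subunit that lies next to M6pr, stood at 119.7 and 147 TPM in the controls, 109 and 113 TPM with Rbbp4 OE, and 123 and 127 TPM with Rbbp7 OE, and its fold change of -0.26 (adjusted p = 0.151) did not pass. Apobec1, a cytidine deaminase, stood at 4.51 and 4.18 TPM in the controls, 2.29 and 3.07 TPM with Rbbp4 OE, and 2.33 and 2.27 TPM with Rbbp7 OE. Its values were -0.55 (adjusted p = 0.0968) in Rbbp4 OE and -0.70 (adjusted p = 0.176) in Rbbp7 OE, which did not pass by limma although both lines were below both controls.

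Among chromatin and transcription genes, 4 of 13 members passed as lower in Rbbp4 OE, about the 34.5% of all members (8.07% of all genes), and none as higher, with a median of -0.35, and in Rbbp7 OE 0 passed, with a median of -0.086. Kdm5a, a demethylase of histone H3 lysine 4, stood at 15.9 and 23.4 TPM in the controls, 9.42 and 8.83 TPM with Rbbp4 OE, and 13.4 and 14.9 TPM with Rbbp7 OE. The controls differed from each other by more than the libraries of either line did, and with Rbbp4 OE it changed by -1.004 (limma adjusted p = 0.0258, SE 0.18), while in Rbbp7 OE it was -0.42. Exons of Kdm5a overlap those of its neighbour Ccdc77. Ing4, a PHD finger protein of a histone acetyltransferase complex, was at -0.43 (limma adjusted p = 0.0262, SE 0.079) in Rbbp4 OE. Zfp422, a zinc finger gene with 1 near-identical copy, was at -0.82 (limma adjusted p = 0.0478, SE 0.19), and the fourth was Mlf2. Zfp239, a zinc finger gene outside this list, stood at 5.8 and 5.4 TPM in the controls, 2.5 and 2.45 TPM with Rbbp4 OE, and 4.34 and 3.52 TPM with Rbbp7 OE, with -0.92 (limma adjusted p = 0.022, SE 0.16) in Rbbp4 OE and -0.43 (adjusted p = 0.284) in Rbbp7 OE. Atn1, a transcriptional corepressor, stood at 43.6 and 57.5 TPM in the controls, 65.8 and 62.2 TPM with Rbbp4 OE, and 69.3 and 66.2 TPM with Rbbp7 OE. Both lines lay above both controls, but the values of 0.35 (adjusted p = 0.14) and 0.43 (adjusted p = 0.216) did not pass. In Ybx3, a cold shock domain protein and the last member by position, the 6 libraries ranged from 455 to 475 TPM and the fold changes were 0.019 (adjusted p = 0.79) and 0.05 (adjusted p = 0.6) by limma.

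**Figure D5:**
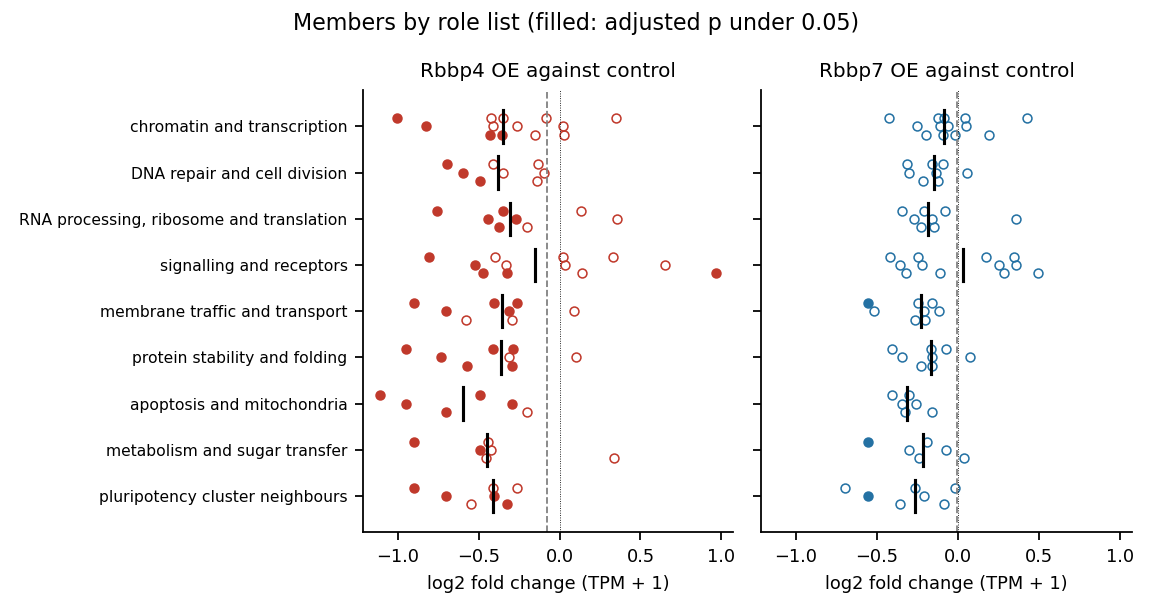
Log2 fold change against control (horizontal axis, log2 of TPM + 1) of the members of 9 role lists (rows) in Rbbp4 OE and Rbbp7 OE. Filled points passed a limma adjusted p under 0.05, black bars are list medians and dashed lines the medians of all genes tested. Signalling and receptors is the only list with a member filled on the right, Tnfrsf1a, and in Rbbp7 OE the only filled gene is Slc2a3, which is in 3 of the lists.

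Genes of RNA processing, the ribosome and translation had 5 of 8 members lower in Rbbp4 OE, where 34.5% of all members and 8.07% of all genes were, none higher, and a median of -0.31, with a median of -0.19 and none past the threshold in Rbbp7 OE. Hnrnpf, an RNA-binding protein of splicing, stood at 1100.3 and 1194 TPM in the controls, 853 and 831 TPM with Rbbp4 OE, and 1024 and 1024 TPM with Rbbp7 OE. Its change was -0.44 (limma adjusted p = 0.00884, SE 0.049) in Rbbp4 OE and -0.16 in Rbbp7 OE, and the annotation holds 7 near-identical copies. Another 3 members assemble ribosomes in the nucleolus. Of these the GTPase Bms1 stood at 76.2 and 86.05 TPM in the controls, 49.6 and 45.6 TPM with Rbbp4 OE, and 66.4 and 67.2 TPM with Rbbp7 OE, a change of -0.76 (limma adjusted p = 0.00894, SE 0.084) in Rbbp4 OE. The others, the RNA methyltransferases Nop2 and Emg1, were at -0.35 (limma adjusted p = 0.0129, SE 0.046) and -0.37 (limma adjusted p = 0.022, SE 0.064). Rpl32, a protein of the large ribosomal subunit and the most abundant member, stood at 4745 and 4304 TPM in the controls, 3762 and 3753 TPM with Rbbp4 OE, and 3826 and 3878 TPM with Rbbp7 OE, with -0.27 (limma adjusted p = 0.0284, SE 0.05) in Rbbp4 OE and -0.23 (adjusted p = 0.137) in Rbbp7 OE. Rpl32 has 4 near-identical copies, and its exons overlap those of Cand2. Dcp1b, a subunit of the decapping complex, was above 0 in both lines, at 0.35 (adjusted p = 0.326) and 0.36 (adjusted p = 0.484), and did not pass.

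Of 8 members of the DNA repair and cell division list, all were below 0 in Rbbp4 OE (77.6% of all members, 59.0% of all genes) and 3 passed as lower, close to the 34.5% of all members (8.07% of all genes), with a median of -0.38, while in Rbbp7 OE the median was -0.15 and 0 passed. Ncapd2, a subunit of condensin I, stood at 265 and 263 TPM in the controls, 175 and 151 TPM with Rbbp4 OE, and 210.4 and 214 TPM with Rbbp7 OE. The 3 groups were separate, and the changes were -0.70 (limma adjusted p = 0.00884, SE 0.076) in Rbbp4 OE and -0.32 (adjusted p = 0.162) in Rbbp7 OE. Tigar also passed. Rad52, a protein of strand annealing just distal of Adipor2, ranged from 15.98 to 23.17 TPM over the 6 libraries and its value was -0.094 (adjusted p = 0.764) by limma in Rbbp4 OE.

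Protein stability and folding had 6 of 8 members lower in Rbbp4 OE (34.5% of all members, 8.07% of all genes), Pex26 and Phb2 of the apoptosis and mitochondria list among them, with a median of -0.36, against -0.16 and none past the threshold in Rbbp7 OE. Usp5, a deubiquitinase that takes apart free ubiquitin chains, stood at 147 and 151 TPM in the controls, 97.8 and 102 TPM with Rbbp4 OE, and 116 and 118 TPM with Rbbp7 OE. Its changes were -0.57 (limma adjusted p = 0.00703, SE 0.055) in Rbbp4 OE and -0.34 (adjusted p = 0.0788) in Rbbp7 OE. Cops7a, a subunit of the COP9 signalosome, stood at 319 and 326 TPM in the controls, 244 and 241 TPM with Rbbp4 OE, and 286 and 291 TPM with Rbbp7 OE. With Rbbp4 OE it changed by -0.41 (limma adjusted p = 0.00877, SE 0.044), and with Rbbp7 OE by -0.16. Vhl, the substrate receptor of the ligase that marks hypoxia-inducible factors, stood at 11.2 and 13.4 TPM in the controls, 6.49 and 7.54 TPM with Rbbp4 OE, and 14.4 and 11.6 TPM with Rbbp7 OE. It was lower in Rbbp4 OE, at -0.73 (limma adjusted p = 0.0386, SE 0.16), and its value in Rbbp7 OE was 0.073 (adjusted p = 0.879). Fkbp4, an HSP90 co-chaperone, was at -0.29 (limma adjusted p = 0.0151, SE 0.041). The F-box gene Fbxl14 was at -0.31 (adjusted p = 0.0666) and did not pass by limma.

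Membrane traffic and transport had 5 of 8 members lower in Rbbp4 OE, against 34.5% of all members and 8.07% of all genes, with a median of -0.36. In Rbbp7 OE all 8 were below 0, against 71.6% of all members and 50.7% of all genes (median -0.23), of which Slc2a3 passed. Atp6v1e1, a subunit of the vacuolar proton pump, stood at 116 and 113 TPM in the controls, 98.2 and 86.8 TPM with Rbbp4 OE, and 97.1 and 95.6 TPM with Rbbp7 OE, and with Rbbp4 OE it changed by -0.31 (limma adjusted p = 0.0492, SE 0.074). Sec13, a coat protein of COPII vesicles, was at -0.26 (limma adjusted p = 0.037, SE 0.055) in Rbbp4 OE. Washc2, a WASH complex subunit that is in no list, stood at 55.3 and 65.6 TPM in the controls, 36.6 and 36.5 TPM with Rbbp4 OE, and 47.5 and 44.7 TPM with Rbbp7 OE. It was lower at -0.71 (limma adjusted p = 0.0143, SE 0.097) in Rbbp4 OE, and its value in Rbbp7 OE was -0.38 (adjusted p = 0.182). Of the 6 members in the metabolism and sugar transfer list, the 2 that passed in Rbbp4 OE were Slc2a3 and Tigar, and the list medians were -0.45 and -0.22.

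The signalling and receptor genes were divided. Of 12 members, 6 were below 0 in Rbbp4 OE, 4 passed as lower (Erc1, Gdf3 and Cd9 among them), about the 34.5% of all members (8.07% of all genes), and 1 as higher (Tnfrsf1a), with a median of -0.15, and in Rbbp7 OE the median was 0.032 and 0 passed. Erc1, a scaffold of vesicle traffic and NF-kappa-B signalling, was at -0.80 (limma adjusted p = 0.0477, SE 0.19) in Rbbp4 OE. Wnk1, a kinase that controls ion cotransport, stood at 120.3 and 151 TPM in the controls, 104 and 99.8 TPM with Rbbp4 OE, and 121 and 128 TPM with Rbbp7 OE, and its change of -0.40 (adjusted p = 0.0674) did not pass by limma. Others of the list lay on either side of control without passing. The interleukin-17 receptor Il17ra stood at 1.91 and 1.42 TPM in the controls, 0.95 and 1.29 TPM with Rbbp4 OE, and 1.11 and 0.87 TPM with Rbbp7 OE. Both lines lay below both controls, with -0.33 (adjusted p = 0.367) in Rbbp4 OE and -0.42 (adjusted p = 0.428) in Rbbp7 OE by limma. Ltbr, the lymphotoxin beta receptor next to Tnfrsf1a, stood at 3.43 and 4.09 TPM in the controls, 4.11 and 4.35 TPM with Rbbp4 OE, and 4.88 and 5.32 TPM with Rbbp7 OE, with 0.36 (adjusted p = 0.331) in Rbbp7 OE. Irak2, a kinase of interleukin-1 receptor signalling, stood at 3.38 and 5 TPM in the controls, 5.95 and 8.32 TPM with Rbbp4 OE, and 6.54 and 4.19 TPM with Rbbp7 OE, with 0.65 (adjusted p = 0.169) in Rbbp4 OE. Lag3, an immune checkpoint receptor outside the list, stood at 0.59 and 0.57 TPM in the controls, 0.73 and 2.12 TPM with Rbbp4 OE, and 2.11 and 1.1 TPM with Rbbp7 OE, which is close to the level limit, with 0.56 (adjusted p = 0.342) in Rbbp4 OE.

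Nearest to Adipor2, the members were mostly low in expression. On its proximal side, Dcp1b and Lrtm2 are the next genes, followed by Ankrd26 and Zfp248. Ankrd26 stood at 4.2 and 9.14 TPM in the controls, 2.78 and 2.39 TPM with Rbbp4 OE, and 5.45 and 4.65 TPM with Rbbp7 OE. Both Rbbp4 OE libraries lay below both controls, but the controls differed by more than the lines did, and the change of -1.02 (adjusted p = 0.0883) did not pass by limma. Lrtm2, a membrane protein with leucine-rich repeats, stood at 1.8 and 0.37 TPM in the controls, 0.39 and 1.12 TPM with Rbbp4 OE, and 0.3 and 0.08 TPM with Rbbp7 OE, with -0.73 (adjusted p = 0.465) in Rbbp7 OE. Zfp248, a zinc finger gene, was at -0.63 (adjusted p = 0.154) in Rbbp4 OE and did not pass. On the distal side, the Wnt ligand gene Wnt5b stood at 0.81 and 1.29 TPM in the controls, 1.19 and 2 TPM with Rbbp4 OE, and 1.53 and 1.09 TPM with Rbbp7 OE. The libraries of each line overlapped the controls. Beyond it lie Fbxl14, Erc1 and Rad52, of which Erc1 passed. Adipor2 itself differed from these neighbours in size, with -1.97 in Rbbp4 OE and -1.64 in Rbbp7 OE on the log2 scale. No member reached its decrease in either line.

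Of the 8 largest non-overlapping decreases in Rbbp7 OE, 7 were in members under 10 TPM and the other was Slc2a3. Prmt8, an arginine methyltransferase, stood at 1.38 and 1.96 TPM in the controls, 0.59 and 0.64 TPM with Rbbp4 OE, and 0.55 and 0.6 TPM with Rbbp7 OE. Both lines lay below both controls at about the same level, with -0.72 (adjusted p = 0.0863) in Rbbp4 OE and -0.75 (adjusted p = 0.204) in Rbbp7 OE, which did not pass by limma. The others were Apobec1, Lrtm2, Clec4a1, Pzp, Mfap5 and Zfp239. Clec4a1 passed the level limit through its controls, at 0.74 and 1.14 TPM where the other libraries were at 0.5 or less, and Lrtm2 through control replicate 1, so for both a higher control was built in by the limit. The largest such increase in Rbbp7 OE was Pianp, a membrane protein that binds PILR-alpha, at 5.43 and 3.59 TPM in the controls, 4.52 and 5.72 TPM with Rbbp4 OE, and 6.66 and 10.8 TPM with Rbbp7 OE, with 0.81 (adjusted p = 0.243). Clstn3, a synaptic adhesion protein of the calsyntenin family, stood at 19.3 and 21.1 TPM in the controls, 26.9 and 25.2 TPM with Rbbp4 OE, and 24.2 and 27.2 TPM with Rbbp7 OE. Both lines were above both controls, with 0.35 (adjusted p = 0.0744) in Rbbp4 OE and 0.33 (adjusted p = 0.215) in Rbbp7 OE.

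At the ends of the stretch, the first member, Brk1, a subunit of the actin-regulating WAVE complex, stood at 155 and 155 TPM in the controls, 122 and 131 TPM with Rbbp4 OE, and 139.9 and 142 TPM with Rbbp7 OE, with -0.29 (limma adjusted p = 0.0324, SE 0.058) in Rbbp4 OE. The nearest expressed gene outside it, Fancd2, a Fanconi anaemia gene of DNA crosslink repair, was at -0.67 (adjusted p = 0.114) by limma in Rbbp4 OE. At the distal end, Smim10l1 outside the stretch was at -0.33 (adjusted p = 0.239). The members just inside the limit of 0.5 TPM were Clec4a1 (mean 0.503 TPM), Mug1 (0.513 TPM) and Zfand4 (0.545 TPM), and the genes just outside it were Clec4a3 (0.478 TPM), Usp18 (0.443 TPM) and Rassf4 (0.407 TPM).

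Single libraries set the values of a few members. Mug1 was listed at 0 in 5 libraries and stood at 3.08 TPM in Rbbp4 OE replicate 2, so it passed the limit through that library. March8 stood at 6.68 and 4.94 TPM in the controls, 2.85 and 3.67 TPM with Rbbp4 OE, and 30.2 and 3.04 TPM with Rbbp7 OE, with 1 Rbbp7 OE library far above the rest. Itfg2 stood at 25.3 and 68.2 TPM in the controls, 42.95 and 42.7 TPM with Rbbp4 OE, and 35.4 and 46.99 TPM with Rbbp7 OE, where the controls enclose the other libraries. Exons of 21 members overlap exons of another expressed gene, and 7 members (Rpl32, Zfp422, Hnrnpf, Mug1, C1s1, Mrpl51 and Tuba3a) have a near-identical copy elsewhere in the annotation, and their values are uncertain where reads could be split. In median GC content (51.4% against 50.3%), transcript length (3216 against 3258 bases) and mean level (12.6 against 12.8 TPM), the members were close to all protein-coding genes tested.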

How the data were processed

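The 6 libraries were poly(A) RNA-seq of 46C cells. Per the study's methods, the authors used Trim_galore, STAR (mm10 with a Gencode vM25 annotation) and RSEM. The deposited values are TPM per gene, already scaled by the authors to length and library total, so depth is unknown, no counting interval could be given, and only relative levels can be compared. Genes were annotated with GENCODE M21 on GRCm38 (55141 of 55401 matched without version, 260 not), and length and GC content are those of the longest transcript. Groups came from the sample labels.

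The members and the gene lists were chosen with earlier results of these data known. All 14156 genes with a mean of at least 0.5 TPM were fitted together with limma-trend (limma 3.58.1, R 4.3.3) on log2(TPM + 1), with 3 groups in 1 fit, 3 residual and 3.103 prior degrees of freedom. P-values were adjusted by Benjamini-Hochberg over all genes tested. Calls needed an adjusted p under 0.01 and a fold over 2, the thresholds in the study's methods, and counts at an adjusted p under 0.05 are given beside them. The fit was tested on simulated data. Named genes were the called members, the 8 largest decreases and 6 largest increases without overlap in each line, the 4 members nearest to Adipor2 on each side, the members of the role lists, the genes at the edges and at the level limit, and Adipor2, Rbbp4 and Rbbp7. Washc2, March8, Itfg2 and Rimklb were chosen after their values were seen. Some members of the role lists are not reported here. Near-identical copies were found with blastn 2.17.0 (95% identity over 80% of the transcript). Alternatives were pseudocounts of 0.1 and 5, other level limits, quantile normalization, median-of-ratios scaling, 2-group fits, a replicate block, leaving out each library, other thresholds and bins of 1 Mb. Protein-coding genes only and a correction for GC content and length were chosen after seeing the data. Replicate numbers did not pair the libraries: over all genes tested, differences between same-numbered libraries correlated at -0.026, 0.034 and -0.031 over the 3 pairs of groups. Over the members the correlations were -0.33 for control with Rbbp4 OE, 0.090 for control with Rbbp7 OE and 0.059 between the lines.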

Additional observations from a re-analysis of the deposited data

Results flagged for a closer look

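Tuba3a changed differently in the 2 lines. Its log2 fold change against control was 0.64 in Rbbp4 OE and 0.09 in Rbbp7 OE, and the direct difference of 0.55 had a limma adjusted p of 0.0466. Both Rbbp4 OE libraries (108 and 111 TPM) lay above both Rbbp7 OE libraries (71.9 and 77.3 TPM). Over its 16 alternatives the adjusted p of this difference ranged from 0.00153 to 0.387 and was under 0.05 in 3.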

How the results depend on the processing

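TPM keep no depth, so sampling error could not be set apart from other spread, and 2 libraries a group leave 3 residual degrees of freedom. When a library was left out, the lone library of its group was taken to vary as much as those of the other groups. The fit with no filter on low values drew a limma warning over zero variances and is unreliable. The decrease of the members kept its direction in all settings run, and the median of all genes moved from -0.077 to 0.011 in Rbbp4 OE with median-of-ratios scaling.

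In Rbbp4 OE the median of the members, -0.31, became -0.35 and -0.24 with pseudocounts of 0.1 and 5, -0.21 with median-of-ratios scaling, -0.28 with quantile normalization, -0.29 with the GC content and length correction, and -0.34 to -0.30 with a library left out. The 40 members lower became 19 with median-of-ratios scaling, 5 in the 2-group fit and 0 to 30 with a library left out, and the 2 higher became 0 to 2. The single call became 2 with a pseudocount of 0.1, median-of-ratios scaling or quantile normalization. It also became 2 with the left out genes added back or an adjusted p under 0.05. It became 3 without a filter, 0 in the 2-group fit, and 42 at an adjusted p under 0.05 without a fold minimum. In Rbbp7 OE the median of -0.12 became -0.17 to -0.10 with a library left out. The 1 lower member became 8 without a filter, 3 at 5 TPM or with the left out genes added back, 2 with the GC correction, and 0 with quantile normalization, in the 2-group fit and with any library left out. Its 0 calls became 1 with the left out genes, or at an adjusted p under 0.05 without a fold minimum. Between the lines, the median of -0.18 became -0.13 with a pseudocount of 5, -0.091 with median-of-ratios scaling, -0.12 with quantile normalization and -0.20 to -0.15 with a library left out. The 0 lower became 9 without a filter, 1 at 5 TPM, with protein-coding genes only or with the left out genes, and 0 to 1 with a library left out. The 1 higher became 0 with either pseudocount, median-of-ratios scaling, quantile normalization, the 2-group fit and the GC correction. The 0 calls became 1 at an adjusted p under 0.05 without a fold minimum.

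With the replicate block, which the numbers do not support as a pairing, 27 members were lower in Rbbp4 OE and 0 called, 0 were lower in Rbbp7 OE, and 0 were higher between the lines. The causes were not tested.

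Some log2 fold changes of members that did not pass took the other sign when a library was left out. In Rbbp4 OE they ran from -0.659 to 0.737 for Itfg2, -0.706 to 0.325 for Lrtm2, -0.0783 to 0.408 for Pianp, -0.349 to 0.160 for Rad52 and -0.00790 to 0.167 for Rimklb. In Rbbp7 OE they ran from -0.748 to 0.215 for Ankrd26, -0.728 to 0.668 for Itfg2, -0.741 to 2.21 for March8, -0.235 to 0.0632 for Phc1, -0.199 to 0.310 for Rad52, -0.0717 to 0.217 for Vhl, -0.274 to 0.0503 for Wnk1 and -0.328 to 0.107 for Zfp422. With the GC correction, Itfg2 was -0.000406, Ltbr -0.0274, Rad52 0.0134 and Ybx3 -0.115 in Rbbp4 OE, and Ybx3 was -0.0178 in Rbbp7 OE. Rad52 was 0.00831 in Rbbp4 OE with median-of-ratios scaling and 0.0194 with quantile normalization.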
